A study of Mus musculus with 8 samples.

Results

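The cytosolic ribosomal protein genes code for the proteins that, with ribosomal RNA, build the large and the small subunit of the ribosome in the cytoplasm. They were taken by symbol from the 8 deposited UMI tables (a UMI is a molecular tag, so that each captured mRNA molecule is counted once): Rpl or Rps followed by a digit, plus Rplp0, Rplp1, Rplp2 and Rpsa, leaving out rows named as pseudogenes by the ending -ps, the Rps6k kinases and Rps19bp1. This gave 86 of the 27923 genes listed. Of these, 49 are large-subunit genes, 34 are small-subunit genes and 3 are the genes of the P stalk, the flexible arm of the large subunit that recruits elongation factors. Rps27 and Rps4l were not among the rows and were not analysed here. Fau and Gnb2l1 (the older symbol of Rack1) also code for parts of the cytosolic ribosome but fall outside the naming rule, and they were followed with other translation genes.

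Single cells of 2 mouse lung tumors were profiled by Seq-Well, in which single cells and barcoded mRNA-capture beads are loaded together into small wells. Both tumors carried p53 fl/fl, along with an oncogenic allele that is not described here, in chimeric mice made from embryonic stem cells of this genotype and of C57BL/6 background, so that host and engineered cells are mixed in the animal. Tumors were started with an adenovirus that drives Cre from the SPC promoter of alveolar type II cells at 12 weeks of age, and they were taken 16 weeks later. From each tumor, cells at the edge with healthy lung were tagged by light with the caged dye calcein NVOC and sorted, giving 1 library per tumor (Healthy/Tumor Border 1 and 2, called Border 1 and Border 2). Cells that were not light-tagged gave 3 technical arrays per tumor (Whole Tumor 1 and Whole Tumor 2). A Border therefore differs from its Whole Tumor arrays in tagging and sorting as well as in place, and these cannot be told apart. The arrays of a tumor are technical, so p-values that compare regions or tumors measure only the spread between arrays. Each tumor is 1 animal. The 2 mice were 1 male and 1 female, so a difference between the tumors cannot be told apart from one of sex or of animal. All 4343 cell names in the 8 tables carry the number of the other tumor, and libraries are named here by their labels; if the labels rather than the names were exchanged, the 2 tumors would change places in every result that names them.

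A barcode was kept if it held at least 200 genes, which left 3894 of 4343. Kept libraries held 374369 to 2019160 UMIs, with medians of 675.5 to 2525.5 UMIs per barcode. Cell classes were set by marker genes: a barcode joined the class with the most markers, of which it had to hold at least 2. Barcodes with fewer than 2 markers of every class were called satellite-rich under 2 conditions. They had to hold at least 2 satellite genes and at least 1% of UMIs on mouse satellite transcripts. These rules placed 3361 barcodes in a class, satellite-rich included, left 115 tied between classes and 418 without a class. The neutrophil-like class was led by S100a9, Csf3r and Il1r2, the C1q macrophage-like class by Apoe and C1qb, and the epithelial-like class by Krt18, Krt7 and Krt8. T-like, B-like and NK-like barcodes were also joined as lymphocyte-like where single classes were too small. In these sums, fewer mRNA molecules of a gene per cell and more molecules of all other genes cannot be told apart, since every level is a share of the UMIs caught.

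Ribosomal protein mRNAs are among the most stable and most abundant in growing cells. They begin with a 5′ terminal oligopyrimidine tract, a run of C and T that places their translation under the mTOR pathway, and the genes of translation elongation factors share this design. Mature neutrophils are short-lived cells whose precursors in the bone marrow shut down much of their ribosome production during maturation, whereas lymphocytes and proliferating tumor cells keep it.

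The members took 116250 of the UMIs in kept barcodes, 1.20% of the total. Each of the 86 members had at least 1 UMI, 60 had at least 100 and 6 had under 10. The counts were concentrated: the top 5 members held 42.6% and the top 10 held 63.2% of the ribosomal protein UMIs. Over all deposited barcodes the highest were Rpl4 (13099 UMIs), which codes for a protein that lines the nascent peptide exit tunnel and Rps3 (10576 UMIs), whose protein sits at the mRNA entry channel. Rpl8 (7902 UMIs), next to the peptidyl transferase center, and Rps14 (7604 UMIs), on the small-subunit platform, were also among the top 5. At the other end, Rps12 had 3 UMIs, Rpl36 had 5, and Rps13 and Rps29 had 8 each. Every ribosome holds a copy of most of these proteins, so the range of UMIs between members is a range of captured and counted molecules.

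Ribosomal protein genes have many processed pseudogenes, and a 50-base read that fits several places in the genome may be dropped or split by an aligner. The coding ends of the 2 members with the most UMIs and of 3 of those with the fewest are shown for this reason, and that of Rpl24 because its levels depart from those of the other members. Each is the last 50 coding bases, 5′ to 3′ on the gene's strand, with the stop codon in capitals, from the GENCODE vM21 transcripts (GRCm38). The genes lie at chr9:64173375-64178666 on the plus strand (Rpl4), chr7:99477896-99483738 on the minus strand (Rps3), chr10:23785198-23787089 on the minus strand (Rps12), chr17:56613416-56614243 on the plus strand (Rpl36), chr12:69157722-69159186 on the minus strand (Rps29) and chr16:55966275-55971435 on the plus strand (Rpl24).
Rpl4: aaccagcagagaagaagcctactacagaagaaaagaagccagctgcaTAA
Rps3: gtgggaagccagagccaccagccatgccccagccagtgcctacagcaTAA
Rps12: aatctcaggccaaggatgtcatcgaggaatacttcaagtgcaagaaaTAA
Rpl36: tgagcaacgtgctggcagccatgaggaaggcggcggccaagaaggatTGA
Rps29: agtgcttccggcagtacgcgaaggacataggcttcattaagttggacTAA
Rpl24: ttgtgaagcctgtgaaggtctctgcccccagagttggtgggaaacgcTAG

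The Rpl4, Rps3 and Rpl24 stretches were found in the transcripts of 0 other genes. The Rps12 stretch was found exactly in 20 other genes, 19 of them annotated as pseudogenes, that of Rps29 in 3 and that of Rpl36 in 1. This 3′ method reads the end of the mRNA. Over the last 500 bases of the annotated transcript chosen for each gene, the share of 50-base windows found in another gene was computed, for the 83 members with a transcript. Some chosen transcripts were long, such as those of Rps15a (5130 bases), Rps20 (3706 bases) and Rps3 (1908 bases), each with 0% shared windows. Whether the captured mRNAs of these genes end there was not tested, so the shared percentages depend on the transcript chosen. The 20 members with the most UMIs had a median of 26.6% shared windows and the 20 with the fewest had 80.5%. The 47 members with over 50% shared windows had a median of 237 UMIs, and the 36 others a median of 814.5. Across the 83 genes Spearman's rho between UMIs and the shared percentage was -0.33, and with transcript length it was 0.15. These are descriptions across genes of 1 data set, and how the authors' counting treated such reads is not given in the sources used here. Exceptions run both ways: the tissue-restricted paralogs Rpl39l and Rpl3l had 0% shared windows with 5 and 24 UMIs, while Rpl24 had 89.6% with 1012 UMIs. Levels are therefore compared below between cells and libraries within a gene, not between genes. Exons of 19 members also overlapped a gene on the opposite strand and those of 5 overlapped a gene other than a small RNA on the same strand, among them Rpl24 with the read-through gene Gm28037, so some of their UMIs may belong to the partner.

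**Figure D1:**
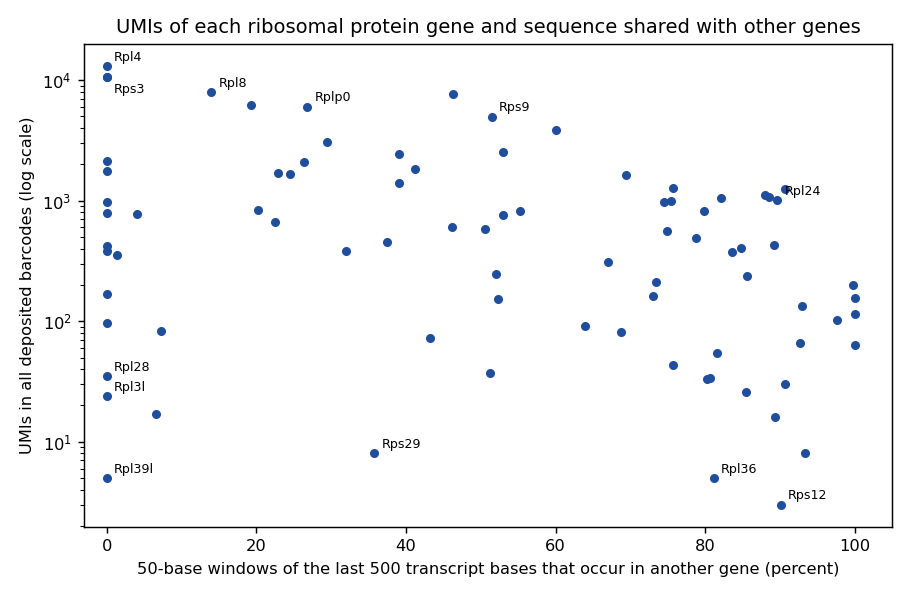
UMIs of each of the 83 members with a transcript over all deposited barcodes (vertical axis, log scale). The horizontal axis is the percentage of 50-base windows found in another gene, over the last 500 bases of the transcript chosen for each gene. Rpl4 and Rps3 sit at 0% with over 10000 UMIs each, and the members above 50% had a median of 237 UMIs.

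The first question was which cells carried most of their mRNA as ribosomal protein transcripts. By pooled share, neutrophil-like barcodes were the lowest of the marker-defined classes and T-like barcodes the highest. Pooled over libraries, the share of UMIs on the 86 members was 0.564% in 1614 neutrophil-like barcodes, 1.04% in 50 alveolar macrophage-like barcodes and 1.04% in 33 fibroblast-like barcodes. C1q macrophage-like barcodes (317) stood at 1.24%, NK-like barcodes (28) at 1.34% and endothelial-like barcodes (52) at 1.43%. These 5 pooled values spanned a range no wider than that of C1q macrophage-like barcodes alone between libraries, 0.882% to 1.46%, so their order is not resolved. Endothelial-like barcodes stood at 0.354% and 1.137% in the only libraries with at least 10 of them. Above them came dendritic-like (1.86%), monocyte-like (1.87%, 12 barcodes), innate lymphoid type 2-like (2.35%), B-like (2.61%), epithelial-like (2.82%) and T-like barcodes (3.07%). The pooled epithelial-like value is mostly that of Tumor 1, and in Tumor 2 libraries with at least 10 of them, at 0.962% to 1.44%, this class stood below the B-like barcodes (1.87% to 2.92%). The satellite-rich barcodes, which held fewer than 2 markers of every cell class, were lowest at 0.304%.

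**Figure D2:**
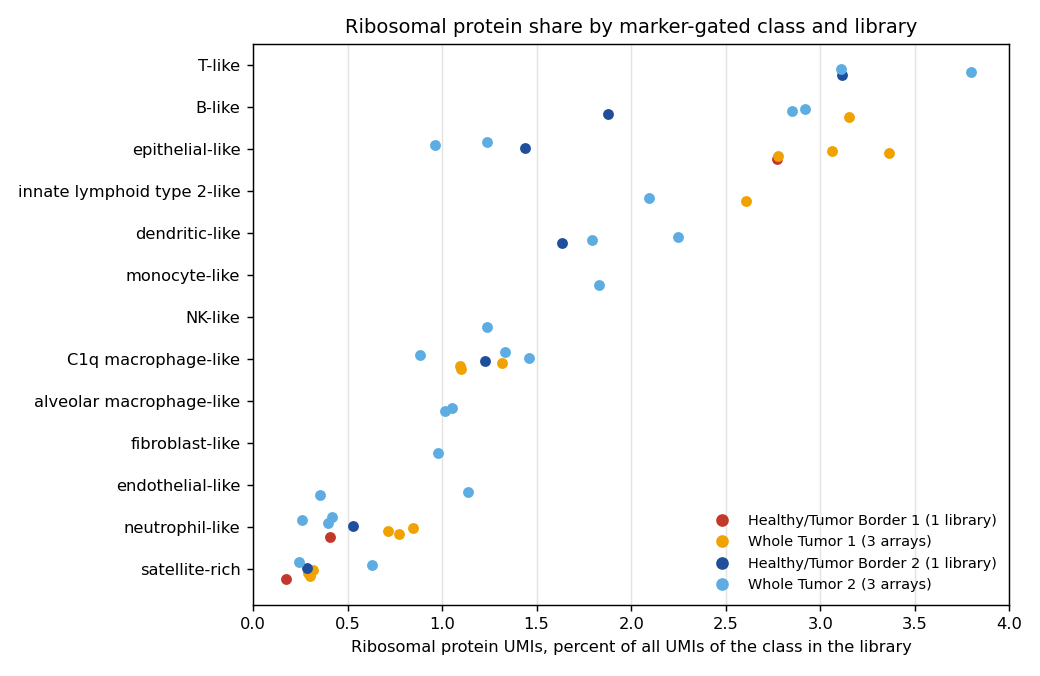
Percentage of UMIs on the 86 ribosomal protein genes (horizontal axis) in each class, with 1 point for each library that held at least 10 barcodes of the class, colored by group. Neutrophil-like points lie between 0.262% and 0.845%, C1q macrophage-like points between 0.882% and 1.46%, and B-like points between 1.87% and 3.15%.

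The neutrophil-like class also stood below the C1q macrophage-like, lymphocyte-like and epithelial-like classes within each library that held at least 10 barcodes of both, where the array and its sequencing are shared. In neutrophil-like barcodes the share was 0.409% in Border 1, 0.774%, 0.714% and 0.845% in the Whole Tumor 1 arrays, 0.527% in Border 2, with 0.398%, 0.262% and 0.420% in the arrays of Whole Tumor 2. C1q macrophage-like barcodes stood at 1.10%, 1.09% and 1.32% in the Whole Tumor 1 arrays, 1.23% in Border 2, with 1.46%, 0.882% and 1.33% in the arrays of Whole Tumor 2. Every C1q macrophage-like value was above every neutrophil-like value. Their ratio within a library ran from 1.42 to 3.67 with a mean of 2.44, and it was above 1 in 7 of 7 libraries. Lymphocyte-like barcodes, at 2.89% in Whole Tumor 1 replicate 2, 2.32% in Border 2, with 3.01%, 1.82% and 2.71% in the arrays of Whole Tumor 2, were 4.05 to 7.55 times the neutrophil-like share in 5 of 5 libraries. Mitochondrial transcripts, a sign of RNA quality and of cell type, moved the same way: they took 3.94% to 5.88% of UMIs in neutrophil-like barcodes, 6.35% to 10.3% in C1q macrophage-like, 10.98% to 13.6% in lymphocyte-like and 6.44% to 19.1% in epithelial-like barcodes. With mitochondrial UMIs left out of the totals the mean ratios to the neutrophil-like share were 2.52, 6.37 and 4.12 in the same order, beside 2.44, 5.88 and 3.83 with them, and their part beyond this was not tested. The ribosomal protein share is a sum over genes chosen with these data known and is given without a test.

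Epithelial-like barcodes divided by tumor. They stood at 2.77% in Border 1, with 2.78%, 3.36% and 3.06% in the arrays of Whole Tumor 1, but at 1.44% in Border 2 and at 0.962% and 1.24% in Whole Tumor 2 replicates 1 and 3 (replicate 2 held fewer than 10). No Tumor 2 value reached a Tumor 1 value. Those led by keratin and other epithelial genes (200 barcodes), of which only Tumor 1 libraries held 10 or more, stood at 3.06%, and those in which surfactant genes led or equalled them (50 barcodes) at 1.19%. In Whole Tumor 1 replicate 1, where both kinds passed 10 barcodes, the values were 2.89% and 1.16%. Within the same library, epithelial-like barcodes stood 2.42 to 6.78 times above neutrophil-like ones, in 7 of 7 libraries.

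The members were next tested as single genes. UMIs were summed per class and library, and the fit compared each class with the neutrophil-like barcodes of the same libraries. Of 37 members tested in C1q macrophage-like barcodes, 34 were higher (edgeR's quasi-likelihood test, Benjamini-Hochberg adjusted p at most 0.05 over all 3160 genes tested) and 1 was lower, against 21.1% of all genes higher and 21.4% lower. The median log2 difference was 1.30 for the members and -0.00 for all genes. Lymphocyte-like barcodes had 36 of 37 members higher, against 24.4% of all 2652 genes, with a median log2 difference of 2.23 beside -0.04. Epithelial-like barcodes had 37 of 39 higher, against 24.5% of all 3378 genes, with a median of 1.93 beside -0.15. Members that entered these fits had to reach a minimum count, and the 47 or more that did not are unaccounted for by these counts. With no filter on low counts and 84 members tested in each, 12 were higher in C1q macrophage-like barcodes, beside 3.89% of all genes, 37 in lymphocyte-like barcodes, beside 3.64%, and 45 in epithelial-like barcodes, beside 8.35%.

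**Figure D3:**
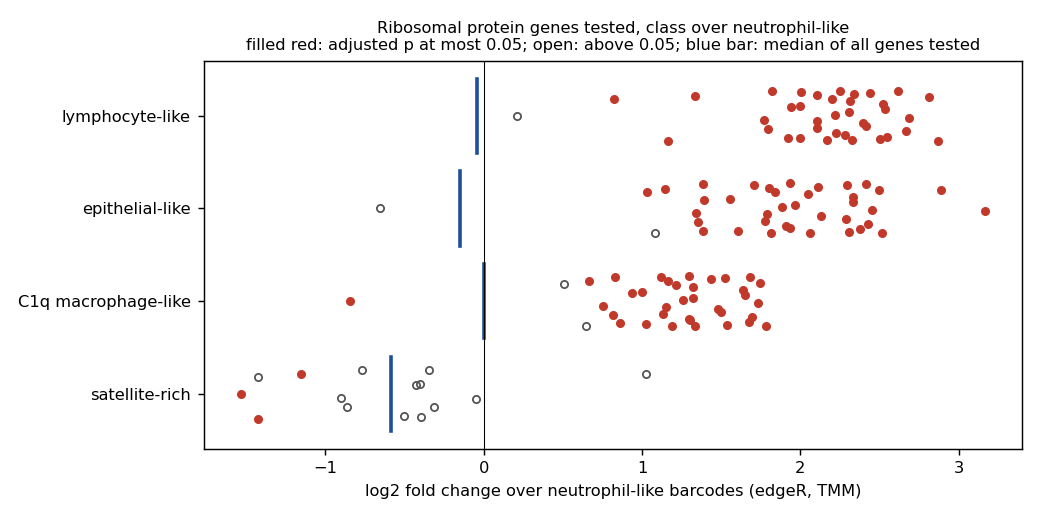
Log2 difference from neutrophil-like barcodes (horizontal axis) for each member tested in lymphocyte-like, epithelial-like, C1q macrophage-like and satellite-rich barcodes. Filled red points passed the test, open points did not, and the blue bar is the median of all genes tested. The lone points left of the other members in the upper 3 classes are Rpl24, at 0.21, -0.65 and -0.85.

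Large-subunit members gave some of the widest differences. Rpl4 stood at 2.56 to 7.33 UMIs per 10000 in neutrophil-like barcodes (median 4.40 over 8 libraries), 8.90 to 17.5 in C1q macrophage-like barcodes (median 14.9), 26.6 to 35.6 in lymphocyte-like barcodes (median 30.9) and 8.24 to 38.2 in epithelial-like barcodes (median 34.2). None of the other 3 ranges overlapped the neutrophil-like range, and Rpl4 was higher in every library that held both classes. Its log2 difference was 1.65 ± 0.25 (SE, adjusted p = 9.25e-05, edgeR) in C1q macrophage-like and 2.62 ± 0.26 (adjusted p = 1.18e-07, edgeR) in lymphocyte-like barcodes. Rpl14, a large-subunit surface protein, rose to 2.73 to 4.73 UMIs per 10000 in lymphocyte-like barcodes from 0.0966 to 1.39 in neutrophil-like ones, a log2 difference of 2.81 ± 0.33 (adjusted p = 1e-06, edgeR), higher in 5 of 5 libraries. The largest lymphocyte-like difference was that of Rpl37a, 2.87 ± 0.46 (adjusted p = 3.67e-05, edgeR), which rests on 63 lymphocyte-like and 38 neutrophil-like UMIs in the 5 libraries compared. In C1q macrophage-like barcodes Rpl13 (1.78 ± 0.38), Rpl35 (1.74) and Rpl32 (1.69) had the largest differences among large-subunit members.

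Small-subunit members moved in the same way. Rps3 ran from 1.93 to 8.71 UMIs per 10000 in neutrophil-like barcodes (median 4.47), from 7.28 to 14.5 in C1q macrophage-like barcodes (median 11.3), from 20.5 to 29.6 in lymphocyte-like barcodes (median 24.3) and from 9.57 to 28.2 in epithelial-like barcodes (median 20.7). Across libraries, C1q macrophage-like and neutrophil-like ranges overlapped for Rps3, which was higher in C1q macrophage-like barcodes in 7 of 7 libraries. Rps18, a protein of the small-subunit head, had the largest epithelial-like difference, 3.17 ± 0.38 on the log2 scale (adjusted p = 7.41e-06, edgeR), from 0.0966 to 0.642 UMIs per 10000 in neutrophil-like barcodes to 0.797 to 5.51. Rps2, which lies at the mRNA entry, followed at 2.89. Rps18 exons overlap Vps52 on the opposite strand. Small-subunit members together made up 48.1% of ribosomal protein UMIs overall.

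The P stalk genes were higher in the 3 classes too. Rplp0, the stalk base that binds ribosomal RNA, stood at 0.966 to 5.49 UMIs per 10000 in neutrophil-like barcodes (median 2.14), 2.95 to 10.5 in C1q macrophage-like barcodes (median 6.09), 4.10 to 17.7 in lymphocyte-like barcodes (median 10.5) and 3.99 to 25.9 in epithelial-like barcodes (median 14.3). Its log2 differences were 1.30 ± 0.28, 1.996 ± 0.278 and 2.05 ± 0.35 (adjusted p = 0.00176, 6.87e-06 and 0.000174, edgeR). Rplp1 and Rplp2, the paired proteins that hang from Rplp0, gave 1.13 ± 0.30 and 0.82 ± 0.28 in C1q macrophage-like barcodes, 1.99 ± 0.30 and 1.94 ± 0.34 in lymphocyte-like barcodes and 1.79 ± 0.34 and 1.35 ± 0.34 in epithelial-like barcodes. All of these passed the test. The C1q macrophage-like call of Rplp2 had an adjusted p of 0.0296 (edgeR). It was lost when Whole Tumor 1 replicate 3 or any Whole Tumor 2 array was left out. The log2 differences were then 0.73, 0.77, 0.76 and 0.56 in turn. This call was also lost without TMM, edgeR's scaling of the libraries (0.78), at a minimum of 500 genes (0.87) and under a stricter marker gate (0.92). It was lost too when barcodes with 2 or more markers of another class were left out (1.00). With no filter on low counts it was lost (0.37), as were C1q macrophage-like Rplp0 (0.85) and Rplp1 (0.69) and epithelial-like Rplp2 (0.70). Rpsa, the small-subunit protein also known as the laminin receptor, did not reach the minimum count in these fits. It stood at medians of 0.0839, 0.145, 0.675 and 0.469 UMIs per 10000 in the neutrophil-like, C1q macrophage-like, lymphocyte-like and epithelial-like barcodes, on 24 to 49 UMIs each.

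Most paralogs of ribosomal proteins were thinly counted. Rps27l, a paralog of Rps27 that p53 induces, was tested in C1q macrophage-like and epithelial-like barcodes and was higher in both, by 1.73 ± 0.41 (adjusted p = 0.0039, edgeR) and 2.06 ± 0.44 (adjusted p = 0.00107, edgeR) on the log2 scale. Its C1q macrophage-like call was lost when barcodes with 2 or more markers of another class were left out (1.33). In lymphocyte-like barcodes Rps27l was not tested and had 13 UMIs, 0 to 0.338 UMIs per 10000. It was above the neutrophil-like level of its library in 1 of 5 libraries. Its partner was not analysed here. Rpl22l1 had 6 neutrophil-like, 20 C1q macrophage-like, 17 lymphocyte-like and 17 epithelial-like UMIs, beside 288, 268, 160 and 428 for Rpl22. Over all barcodes Rpl36al had 309 UMIs and its partner Rpl36a had 26, which are numbers of molecules caught and give no order of the 2 levels. Rpl7l1, a protein of ribosome assembly named for its likeness to Rpl7, had 121 neutrophil-like UMIs beside 150 for Rpl7, but 36 beside 230 in epithelial-like barcodes. Rpl39l, Rpl10l and Rpl3l, known mainly from testis and from muscle, had 5, 17 and 24 UMIs over all barcodes. Among the partners, Rpl39, Rpl3, Rps4x and Rpl10 had 835, 375, 560 and 157, and Rpl10 alone of these was no higher in epithelial-like than in neutrophil-like barcodes in any of 7 libraries (4 epithelial-like UMIs in all).

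Among the members tested, Rpl24 departed from this pattern. It codes for a large-subunit protein that forms a bridge to the small subunit, and its coding end is printed above. In neutrophil-like barcodes it stood at 1.02 UMIs per 10000 in Border 1, at 1.23, 1.18 and 0.891 in the Whole Tumor 1 arrays, at 1.40 in Border 2, with 0.969, 1.83 and 1.43 in the arrays of Whole Tumor 2. In C1q macrophage-like barcodes it was 0.811, 0.540 and 0.571 in the Whole Tumor 1 arrays, 0.992 in Border 2, with 1.09, 0.346 and 0.519 in the arrays of Whole Tumor 2. It was lower there than in neutrophil-like barcodes in 6 of 7 libraries, with a log2 difference of -0.85 ± 0.31 (adjusted p = 0.0399, edgeR). That call was lost at a minimum of 500 genes (-0.66), when barcodes with 2 or more markers of another class were left out (-1.02), and without Whole Tumor 1 replicate 2 (-0.82), Border 2 (-0.93), Whole Tumor 2 replicate 2 (-0.72) or Whole Tumor 2 replicate 3 (-0.73), though the direction did not change. Rpl24 was the only member not called in lymphocyte-like barcodes (0.21 ± 0.31), and it gave -0.65 ± 0.35 (adjusted p = 0.127, edgeR) in epithelial-like barcodes. Rpl24 and Gm28037 share exons on 1 strand and 89.6% of the Rpl24 windows recur in other genes, so its UMIs may not all be those of Rpl24, and this was not tested.

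Rps9, a small-subunit protein at the mRNA entry, was the member with the smallest call in C1q macrophage-like barcodes, 0.66 ± 0.23 on the log2 scale (adjusted p = 0.0279, edgeR). It was also near the bottom in lymphocyte-like (0.82 ± 0.28, adjusted p = 0.0192, edgeR) and epithelial-like barcodes (1.144 ± 0.422, adjusted p = 0.0314, edgeR). Each of these calls was lost when several libraries were left out in turn, with ranges of 0.54 to 0.70, 0.62 to 1.03 and 0.93 to 1.45. Rps9 was above its neutrophil-like level in 7 of 7, 5 of 5 and 5 of 7 libraries.

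Satellite-rich barcodes carried the lowest share of ribosomal protein UMIs, 0.175% in Border 1, 0.292% to 0.319% in the 3 Whole Tumor 1 arrays, 0.287% in Border 2 and 0.630% and 0.242% in Whole Tumor 2 replicates 1 and 3. The share was below that of neutrophil-like barcodes in 6 of 7 libraries, with a mean ratio of 0.615, and Whole Tumor 2 replicate 1 was the exception at 1.58. Satellite-rich barcodes were shallow, with library medians of 282 to 383 UMIs, and 15 members were tested. Rplp1 (-1.53 ± 0.56, adjusted p = 0.0165), Rplp0 (-1.43 ± 0.51, adjusted p = 0.0148) and Rps9 (-1.16 ± 0.44, adjusted p = 0.0238) were lower by edgeR, 3 of 15 members against 32.0% of all 1908 genes tested. The member median was -0.51 and the all-gene median -0.59. With no filter on low counts 43 of 82 members were lower, beside 16.5% of all genes, and the medians were -1.82 and 1.32, so the likeness of members and all genes holds only for the genes that reached the minimum count. These 3 genes had 9, 13 and 23 satellite-rich UMIs, and without Border 1 each of the 3 calls was lost (-1.37, -1.30 and -1.11).

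The light-tagged border of each tumor was next set against its Whole Tumor arrays. In neutrophil-like barcodes the ribosomal protein share of Border 1 was 0.409% (95% exact Clopper-Pearson interval 0.397% to 0.421%, which covers counting error only), below all 3 Whole Tumor 1 arrays, whose mean was 0.778% ± 0.0653 (SD, n = 3). The share of Border 2 was 0.527% (interval 0.497% to 0.558%), above all 3 Whole Tumor 2 arrays, whose mean was 0.360% ± 0.0858 (SD, n = 3). The border thus lay 0.369 percentage points below the arrays in Tumor 1 and 0.167 above them in Tumor 2. The mitochondrial share of UMIs was also below all 3 arrays in Border 1, and within its arrays in Border 2. With mitochondrial UMIs left out of the totals, Border 1 stood at 0.426% beside 0.817%, 0.748% and 0.896%. Border 2 then stood at 0.552% beside 0.423%, 0.274% and 0.438%, and the part of RNA quality beyond this was not tested. When barcodes with 2 or more markers of another class were left out, Border 2 (97 of 107 barcodes) fell to 0.376%, inside the range of its arrays (0.341%, 0.254% and 0.392%), while Border 1 stayed below its arrays at 0.401% beside 0.701%, 0.714% and 0.789%. Border 2 also lay within its arrays over barcodes with at least 500 genes (0.546% beside 0.398%, 0.564% and 0.435%) and as a median per barcode (0.259% beside 0.260%, 0.154% and 0.222%). In the neutrophil-like barcodes the C1q macrophage-like marker list took 3.24 UMIs per 10000 in Border 2 (4 of 6 markers with a UMI, C1qc and Ms4a7 at 0) and 0.676 to 1.83 in the Whole Tumor 2 arrays. In Tumor 1 it took 0.184 in Border 1, where C1qa, C1qb and C1qc were at 0, and 0.551 to 7.03 in the arrays. The epithelial-like (0.367), B-like (0.058) and NK-like (0.0193) lists also lay below all 3 arrays in Border 1, whose lowest values were 0.551, 0.0743 and 0.0563, while the T-like list lay within them. The NK-like list took 0.991 in Border 2 and 0 to 0.264 in its arrays, and the epithelial-like list 1.31 and 0.290 to 0.837. The B-like list, at 0.811, and the T-like list, at 0.135, lay within their arrays. Their part in either border difference beyond this change of gate was not tested.

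**Figure D4:**
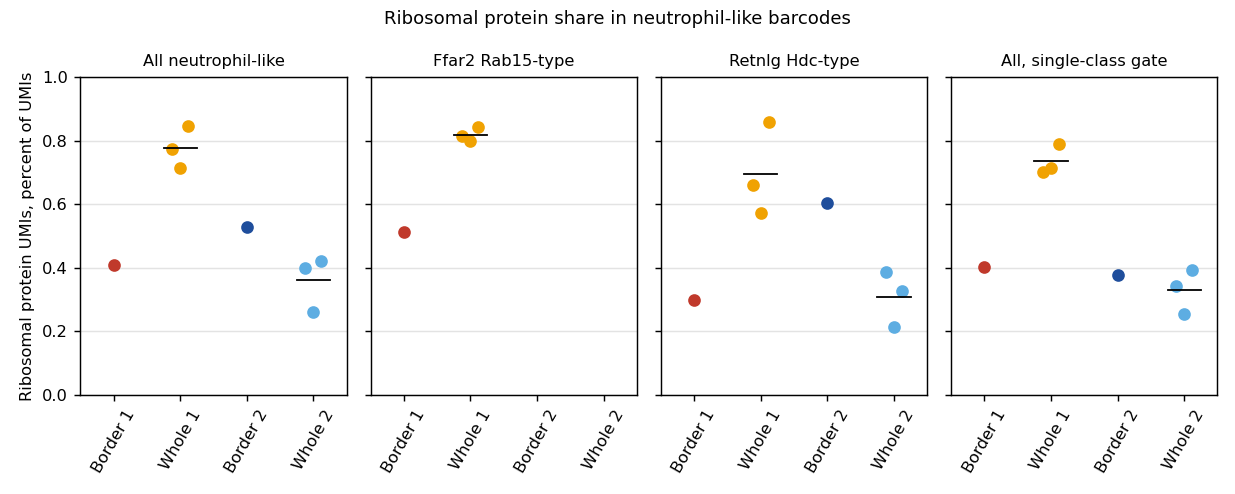
Percentage of UMIs on ribosomal protein genes in neutrophil-like barcodes (vertical axis), 1 point per library with at least 10 barcodes and a line at the mean of the arrays, for all such barcodes, for the Ffar2 Rab15-type and the Retnlg Hdc-type among them, and after leaving out barcodes with 2 or more markers of another class (titled single-class gate). Border 1 lies below its 3 arrays in every panel, and Border 2 lies above its arrays in the first and the third panel and within them in the last.

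The difference in Tumor 1 held within the types of neutrophil-like barcode. Among those led by Ffar2, Tnfrsf23, Rab15 and Entpd3, genes of tumor-associated neutrophils, the share was 0.513% in Border 1 and 0.816%, 0.797% and 0.844% in the arrays. Among those led by Retnlg, Hdc and other genes of circulating neutrophils it was 0.298% in Border 1 and 0.660%, 0.571% and 0.857% in the arrays. Border 1 lay below all 3 arrays in both types. In Tumor 2 the Retnlg Hdc-type stood at 0.603% in Border 2 and at 0.386%, 0.214% and 0.326% in the arrays, while the barcodes of neither type stood at 0.305% in Border 2 and at 0.381%, 0.615% and 1.25% in the arrays, so the 2 sets moved opposite ways. The type led by Ffar2 held fewer than 10 barcodes in each Tumor 2 library.

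No member passed the test for the border in either tumor. In Tumor 1, 0 of 48 members tested differed, against 8.21% of all 6396 genes in either direction and 1.31% lower, with edgeR's test. Without adjustment 5 of the 48 had p under 0.05, beside 21.4% of all genes, and DESeq2 called 0, leaving 28 members without an adjusted p. In Tumor 2, 0 of 48 differed, against 6.60% of all genes in either direction and 2.33% higher, with edgeR's test. There 7 of the 48 had an unadjusted p under 0.05, beside 20.7% of all genes, and DESeq2 called 0, leaving 23 without an adjusted p. The median log2 difference was -0.36 for the members and -0.05 for all genes in Tumor 1, and 0.22 and 0.04 in Tumor 2. Each border is a single library, so its spread is assumed in these fits to be that of the arrays. The comparisons of neutrophil-like barcodes between borders, arrays and tumors are taken from 1 fit and share libraries.

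The scaling of the libraries decided how many members were called. TMM scaling sets the bulk of genes to no change, and without it the median of all genes moved by -0.55 on the log2 scale in Tumor 1 and by 0.38 in Tumor 2. Then 16 members were lower in Border 1, against 12.4% of all genes, and 5 were higher in Border 2, against 7.04%. On the unscaled UMIs per 10000, 44 of the 48 tested members (57 of all 86) lay below all 3 arrays in Border 1, where 61.0% of all genes tested did so, and 31 of 48 (42 of 86) lay above all 3 in Border 2, beside 48.3%. The other direction was taken by 0 of 48 members in Tumor 1, beside 12.0% of genes, and by 1 of 48 in Tumor 2, beside 17.3%. The 10 most abundant genes, led by Gm26924, took 24.5% of neutrophil-like UMIs in Border 1, 18.7% to 19.7% in the Whole Tumor 1 arrays, 22.6% in Border 2 and 24.6% to 27.7% in the Whole Tumor 2 arrays. Without TMM the median log2 difference was -0.90 for the members and -0.60 for all genes in Border 1, and 0.60 and 0.42 in Border 2. What part the most abundant genes had in these differences was not tested.

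**Figure D5:**
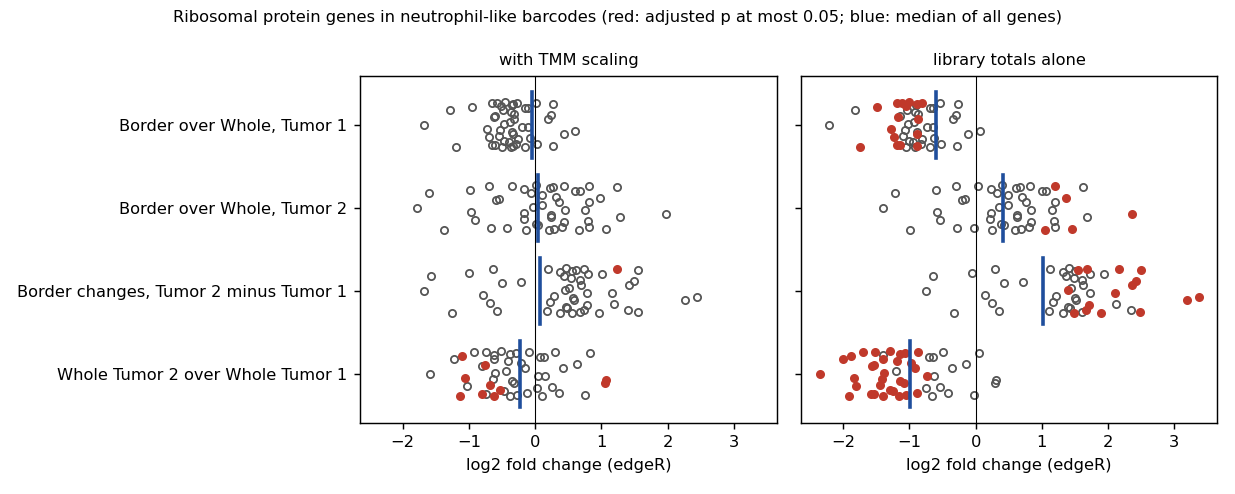
Log2 difference of each of the 48 members tested in neutrophil-like barcodes with TMM scaling (left) and by library totals alone (right), for Border over Whole in each tumor, the difference of the tumors, and Whole Tumor 2 over Whole Tumor 1. Filled red points passed the test and the blue bar is the median of all 6396 genes, which moves by -0.55, 0.38, 0.93 and -0.78 without TMM while the members move with it.

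Among single members at the border, Rpl4 stood at 2.99 UMIs per 10000 in Border 1 against 6.64, 5.54 and 7.33 in its arrays, and at 6.04 in Border 2 against 2.56, 2.80 and 3.26. The border lay outside the range of its arrays in both tumors, on opposite sides. The border differences were -0.57 (adjusted p = 0.203) in Tumor 1 and 0.67 (adjusted p = 0.155) in Tumor 2 by edgeR, neither past the threshold. The difference between these 2 differences, tested as such, was 1.24 ± 0.38 for Rpl4 (adjusted p = 0.0374, edgeR), the 1 member of 48 that passed, against 2.33% of all genes higher. It did not pass without Whole Tumor 1 replicate 1 (1.21), Whole Tumor 1 replicate 3 (1.17) or Whole Tumor 2 replicate 1 (1.13), and it fell to 0.40 (adjusted p = 0.651) once barcodes with markers of another class were left out. Rpl35, near the exit tunnel, gave the largest value at Border 2, 1.98 (adjusted p = 0.0598), from 0.721 UMIs per 10000 against 0.0441, 0.193 and 0.168, that is 16 UMIs against 1, 2 and 10. Rps10 came nearest to the threshold at Border 1 with -1.19 (adjusted p = 0.0567), from 0.280 UMIs per 10000 against 0.837, 0.889 and 1.11.

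The stalk genes did not pass at the border either, and differences between them were not tested. In Tumor 1 the log2 differences of Rplp0, Rplp1 and Rplp2 were -0.34, -0.15 and -0.10, and Rplp2 gave 0.27 in Tumor 2. Rplp0 stood at 2.52 UMIs per 10000 in Border 1 against 3.54, 4.92 and 5.49, and at 1.08 in Border 2 against 1.63, 0.966 and 1.77, so Border 2 lay within its arrays. Rplp1 stood at 1.69 in Border 1 against 3.18, 2.32 and 2.80, and at 2.30 in Border 2 against 1.01, 0.483 and 1.18. For Rplp1 the border lay outside its arrays in both tumors, on opposite sides. The log2 differences in Tumor 2 were -0.91 for Rplp0 (adjusted p = 0.188) and 0.81 for Rplp1 (adjusted p = 0.2, edgeR).

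In C1q macrophage-like barcodes the border could be compared in Tumor 2 only. The ribosomal protein share of Border 2, 1.23%, lay within the range of the 3 arrays, 0.882% to 1.46%. Of 45 members tested 0 differed by edgeR, against 0.168% of all 4171 genes, and 0 members had an unadjusted p under 0.05 and 0 were called by DESeq2. The median log2 difference was -0.11 for the members and 0.03 for all genes. Rpl4 stood at 17.5 UMIs per 10000 in Border 2 and at 16.3, 11.4 and 14.9 in the arrays.

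Neutrophil-like barcodes were also compared between the arrays of the 2 tumors. The Whole Tumor 2 arrays (0.398%, 0.262% and 0.420%) lay below the Whole Tumor 1 arrays (0.774%, 0.714% and 0.845%) without overlap in ribosomal protein share. The mix of types differed between the tumors, since only Tumor 1 libraries held 10 or more of the Ffar2 Rab15-type. Within the Retnlg Hdc-type the arrays had means of 0.696% ± 0.146 and 0.309% ± 0.0871 (SD, n = 3) without overlap, whereas barcodes of neither type overlapped, with means of 0.754% ± 0.111 and 0.750% ± 0.452 (SD, n = 3). The second Whole Tumor 2 array was shallow, with a median of 592 UMIs per neutrophil-like barcode, and stood at 0.564% over its 18 barcodes with at least 500 genes. With TMM, 8 of 48 members were lower in Whole Tumor 2, against 19.3% of all genes, and 2 were higher, against 21.2%. Without TMM, where the all-gene median moved by -0.78, 32 members were lower, against 51.3% of genes, and 0 were higher. In UMIs per 10000, 36 of the 48 tested members (45 of 86) had all 3 Whole Tumor 2 arrays below all 3 of Whole Tumor 1, where 54.3% of all genes did, and 0 of 48 had them above, where 11.2% of all genes did.

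Rplp0 was the lower member with the smallest adjusted p. It stood at 1.63, 0.966 and 1.77 UMIs per 10000 in the Whole Tumor 2 arrays against 3.54, 4.92 and 5.49 in those of Whole Tumor 1, a log2 difference of -0.80 ± 0.23 (adjusted p = 0.00608, edgeR). Rpl22, a large-subunit protein that T cell development needs, stood at 0.529, 0.193 and 0.269 against 1.73, 0.844 and 1.34, a difference of -1.139 ± 0.365 (adjusted p = 0.0127). Rpl14 stood at 0.352, 0.0966 and 0.336 against 1.12, 0.889 and 1.39, a difference of -1.06 ± 0.35 (adjusted p = 0.0147). The arrays of the 2 tumors did not overlap for any of the 3. Rpl35a (-1.10 ± 0.35, adjusted p = 0.013), Rps26 (-0.75 ± 0.29, adjusted p = 0.0367), Rplp1 (-0.68 ± 0.26, adjusted p = 0.0348), Rpl8 (-0.62 ± 0.23, adjusted p = 0.0278) and Rps3 (-0.52 ± 0.21, adjusted p = 0.0425) made up the rest of the lower calls by edgeR. Each of the 8 except Rplp0 lost its call when some single library was left out. Without Whole Tumor 1 replicate 3 only 3 members were lower, of 46 then tested, and the matching share of all genes is not given here. Rplp0 lost its call over barcodes with at least 500 genes (-0.73). Rpl4 (-0.38, adjusted p = 0.124) and Rps14 (-0.10) did not pass.

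The 2 higher members were Rps9 and Rpl24. Rps9 stood at 4.76, 2.41 and 5.18 UMIs per 10000 in the Whole Tumor 2 arrays and at 3.63, 3.46 and 3.61 in those of Whole Tumor 1, which overlap, and its log2 difference was 1.06 ± 0.22 (adjusted p = 0.000207, edgeR). Rpl24, at 0.969, 1.83 and 1.43 against 1.23, 1.18 and 0.891, also overlapped and gave 1.07 ± 0.26 (adjusted p = 0.00152, edgeR). Without TMM the values were 0.29 and 0.30 and neither passed, so these members are higher only relative to the other genes of the same libraries.

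Other genes of translation were followed from fixed lists. The list of 18 further genes with oligopyrimidine mRNAs or translation roles, elongation factors Eef1a1 and Eef2 and the poly(A)-binding protein Pabpc1 among them, followed the ribosomal proteins: 12 of 12 tested were higher in C1q macrophage-like barcodes, 11 of 11 in lymphocyte-like barcodes and 12 of 12 in epithelial-like barcodes than in neutrophil-like ones, against 21.1%, 24.4% and 24.5% of all genes. Their medians were 1.30, 1.92 and 1.96 on the log2 scale. In UMIs per 10000 the list ran from 14.7 to 39.5 in neutrophil-like barcodes, with no overlap with C1q macrophage-like (49.7 to 77.0), lymphocyte-like (89.5 to 133.2) or epithelial-like barcodes (47.8 to 178.0). In satellite-rich barcodes Eef1a1, Eef2 and Pabpc1 were lower, 3 of 8 tested, near the 32.0% of all genes, and none was higher. At the borders 0 of 17 tested genes passed in either tumor, against 8.21% and 6.60% of all genes, and between the Whole Tumors 1 of 17 (Gnb2l1) was lower and 0 were higher in Tumor 2, beside 19.3% and 21.2% of all genes.

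Genes of ribosome biogenesis, which process ribosomal RNA and assemble subunits in the nucleolus, were less widely tested. Of 20, 1 of 4 tested was higher in C1q macrophage-like barcodes (Polr1d, a subunit of RNA polymerases I and III), 4 of 5 in lymphocyte-like barcodes (Ncl, Nop56, Nop58 and Polr1d) and 4 of 5 in epithelial-like barcodes (Ncl, Nhp2, Nop58 and Polr1d), against 21.1%, 24.4% and 24.5% of all genes. In neutrophil-like barcodes Ncl, the nucleolar protein nucleolin, was higher in Border 2 than in its arrays, the 1 of 10 that passed there beside 6.60% of all genes, and 0 of 10 passed in Border 1 beside 8.21%. Between the Whole Tumors, 1 of 10 (Myc) was higher and 3 of 10 (Ncl, Pes1 and Polr1d) were lower in Tumor 2, beside the 21.2% and 19.3% of all genes.

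The mitochondrial ribosomal proteins build the separate ribosome of the mitochondrion. Of 77, only 2, 2 and 7 reached the minimum count in the 3 class comparisons. Mrpl33 was lower in C1q macrophage-like and lymphocyte-like barcodes, Mrpl24 was higher in lymphocyte-like barcodes, and Mrpl13, Mrpl17 and Mrpl43 were higher in epithelial-like barcodes. These are too few to set against the all-gene shares, which were 21.1%, 24.4% and 24.5% higher in the same order and 21.4% lower in C1q macrophage-like barcodes. In UMIs per 10000 the list ran from 6.18 to 19.95 in neutrophil-like and from 7.10 to 18.1 in C1q macrophage-like barcodes, with medians of 10.5 and 13.5. In epithelial-like barcodes it ran from 12.8 to 30.2 with a median of 27.6, and in lymphocyte-like barcodes from 9.56 to 27.0 with a median of 15.5. Each range overlapped the neutrophil-like range. At the borders, 0 of 41 tested passed in Tumor 1, beside 8.21% of all genes, and 3 in Tumor 2, beside 6.60%, where Mrpl52 and Mrps21 were higher and Mrpl33 lower. In the difference of the tumors 5 of 41 were higher, beside 2.33% of all genes, and 1 was lower, beside 6.71%. Between the Whole Tumors, 13 of 41 tested were lower in Tumor 2 and Mrpl33 was higher, beside the 19.3% and 21.2% of all genes.

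Start sites were searched for a pyrimidine run because oligopyrimidine mRNAs begin with one. The motif CTTTCC was counted on the gene's strand from 50 bases before to 50 after the RefSeq start (GRCm38.p6), for the 63 members with an entry. It was present in 19 of them, 30.2%, against 5.43% of 27025 genes, and on the opposite strand in 2 members, 3.17%, against 5.12%. The 30 bases centered on the start site are shown for 4 members named above or tested between classes, with the motif in capitals, at chr7:45128731-45128760 on the minus strand (Rpl13a), chr17:27635230-27635259 on the minus strand (Rps10), chr2:39005117-39005146 on the minus strand (Rpl35) and chr16:33056467-33056496 on the plus strand (Rpl35a).
Rpl13a: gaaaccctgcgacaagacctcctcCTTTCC
Rps10: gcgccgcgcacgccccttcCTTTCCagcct
Rpl35: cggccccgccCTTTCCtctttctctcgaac
Rpl35a: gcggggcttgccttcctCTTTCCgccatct

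A match says only that these letters lie in the window, and members without it can begin with another pyrimidine run. Of the 4 genes shown, Rpl35 had a large and Rpl35a a small log2 difference among the members called in epithelial-like barcodes. Members with the motif were not compared as a set with those without it.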

How the data were processed

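Seq-Well libraries were sequenced by the authors, demultiplexed with bcl2fastq 2.17.1.14, aligned with STAR 2.5.2b to mm10 and turned into UMI counts per gene and barcode by a Drop-seq protocol; the annotation version is not given in the sources used here. The deposited values are raw counts, with 50-base transcript reads. Members and lists were chosen with earlier results of these data known. Barcodes with at least 200 genes were assigned to the class with the most of its markers (at least 2); ties stayed out. Satellite-rich barcodes had fewer than 2 markers of every class, at least 2 satellite genes and at least 1% satellite UMIs. No doublet caller was run; leaving out barcodes with 2 or more markers of another class was an alternative added after seeing the data, as was leaving out 63 barcodes of shared or primer-like sequence (10 sequences, 56 barcodes, were in more than 1 library). Classes entered with at least 10 barcodes in a library. UMIs were summed per class and library and fitted with edgeR 4.0.16 in R 4.3.3 (quasi-likelihood test, TMM, filterByExpr, Benjamini-Hochberg over all genes tested), with library as a term between classes. Neutrophil-like fits used all 8 libraries.

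Named members were, per comparison, the 5 largest and 5 smallest calls, the P stalk genes, Rpsa, the paralogs with their partners and the 5 members with the most UMIs; Rpl24, Rps9, Rps10, Rpl35 and others named for their place in a pattern were chosen after their values were seen where they fell outside this. Alternatives were no TMM, DESeq2 1.42.0, no filter on low counts, at least 500 genes, a stricter gate and leaving out each library; for shares also all deposited barcodes, medians per barcode, and totals without mitochondrial or satellite UMIs. The fits were tested on simulated data. Sequences came from GENCODE vM21 (GRCm38) and RefSeq (GRCm38.p6). Some genes and 1 macrophage class that the rules would name are not reported here.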

Additional observations from a re-analysis of the deposited data

Results flagged for a closer look

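The ribosomal protein share of neutrophil-like barcodes differed from the mean of the arrays by -0.369 percentage points at the border of Tumor 1 and by 0.167 at that of Tumor 2. The border lay on opposite sides of all 3 arrays in the 2 tumors, and this difference was not tested. Border 2 lay within its arrays at 500 genes, as a median per barcode and with barcodes of mixed markers left out.

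For Rpl4 the border difference in neutrophil-like barcodes was higher in Tumor 2 than in Tumor 1 by 1.24 on the log2 scale, by the edgeR test of the difference itself (adjusted p = 0.0374). It did not pass with no filter on low counts, at 500 genes, without Whole Tumor 1 replicate 1 or 3 or Whole Tumor 2 replicate 1, or with barcodes of mixed markers left out (0.40). No group held the 4 to 10 samples needed to look for a library far from the others.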

How the results depend on the processing

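Without TMM, 16 members were lower in Border 1 (12.4% of all genes), 5 higher in Border 2 (7.04%), 15 higher in the difference of the tumors (14.8% of all genes), 0 higher and 32 lower in Whole Tumor 2 over Whole Tumor 1 (51.3% lower) and 10 of 15 lower in satellite-rich barcodes (57.2%). Under the stricter gate 1 was lower in Border 1 (1.72% of all genes), 2 higher in Border 2 (2.84%), 2 higher in the difference (2.94%), 13 lower between the Whole Tumors (20.9%), and 3 lower (30.3%) and 1 higher (13.4%) of 13 in satellite-rich barcodes. The difference of the tumors had 0 higher members with no filter (0.241% of all genes), at 500 genes (1.32%) and with barcodes of mixed markers left out (2.21%). Lower members between the Whole Tumors numbered 4 with DESeq2 (10.9% of all genes), 4 with no filter (4.92%), 3 at 500 genes (16.2%) and 13 with mixed barcodes left out (23.1%). With no filter, 12 members of 84 tested were higher in C1q macrophage-like barcodes (14.3%, beside 3.89% of all genes), 2 of 84 lower in epithelial-like (10.3% of all genes) and 43 of 82 lower in satellite-rich barcodes (16.5%). The lower call in C1q macrophage-like barcodes (Rpl24) was 0 at 500 genes (15.7% of all genes) and with mixed barcodes left out (25.3%). In satellite-rich barcodes 1 member was higher with DESeq2 (18.0%) and 0 were lower with mixed barcodes left out (28.7%).

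The border difference in share was -0.278 percentage points in Tumor 1 as a median per barcode, and in Tumor 2 it was 0.0805 at 500 genes, 0.0470 as a median and 0.0469 with mixed barcodes left out. The C1q macrophage-like and lymphocyte-like ratios were 3.51 and 9.12 as medians per barcode.

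Leaving out each library gave 0 to 1 lower members for Border 1, 0 to 1 lower for Border 2, 0 to 1 for the difference, 2 to 3 higher and 3 to 8 lower between the Whole Tumors, 25 to 34 higher and 0 to 1 lower in C1q macrophage-like, 30 to 40 higher in lymphocyte-like, 31 to 44 higher and 0 to 1 lower in epithelial-like, and 0 to 1 higher and 0 to 6 lower in satellite-rich barcodes. The number of members tested changed with the library left out, and the matching shares of all genes are not given here. These ranges are therefore not read against the shares of the main fits. The border differences ran from -0.400 to -0.335 and from 0.117 to 0.197 percentage points. The ratios ran from 2.23 to 2.60, 5.46 to 6.34, 3.34 to 4.06 and 0.454 to 0.655. For 75 calls of named members, 813 of 937 alternatives kept direction and threshold, 124 kept only direction and 0 reversed.

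Array numbers did not pair the tumors: same-numbered arrays correlated at -0.0135, 0.0181 and -0.00866 over 4949 genes. In a fit of the Whole Tumor arrays alone, 2 members were higher and 9 lower in Whole Tumor 2 with the replicate block, as without it. The borders are left out of that fit, so its lower count differs from that of the fit of all libraries. No satellite-rich value could be had at 500 genes. Depth limits the members under 100 UMIs, 26 of 86, which entered none of the report's fits with the filter on low counts.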
